A study of Rattus norvegicus with 36 samples.

Results

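Slow skeletal muscle and the heart build their contractile units from a shared set of protein isoforms, and 10 genes of that set were followed here across rat thyroid samples: Myh7, Myh6, Tnnc1, Tnni1, Tnnt1, Myl2, Myl3, Myl4, Actc1 and Myoz2. A probe was used if its transcript accession mapped to one of these symbols. Of the 10 genes, 9 were matched in this way by 10 probes (Tnnt1 had 2), out of 30367 probes and 15154 named genes on the array. The remaining gene, Myoz2, had no accession match. A probe that the study's own annotation assigns to Myoz2 is described beside the others and was left out of the counts and medians of the comparisons between groups. Myoz2 is included in the promoter search and in the check for outlying rats.

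Thyroid glands were collected 24 h after intravenous injection from 36 adult male Sprague Dawley rats, and RNA of each gland was hybridised to 1 one-colour Agilent array. There were 8 irradiated groups of 4 rats, with an activity of 9, 88, 170 or 260 kBq in the lower range and 340, 760, 1300 or 4700 kBq in the upper range, of 131I, the radioiodine isotope that thyroid follicular cells take up and retain, and 4 control rats were mock-treated (0 kBq). Groups were injected in order of activity and the controls last, so place in that order and injected activity cannot be told apart. A level below is log2 of the probe's background-subtracted intensity minus the 75th percentile of its array, so that 0 marks a transcript as bright as that percentile and 1 unit is a doubling relative to it.

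A sarcomere is the repeating unit in which myosin heads on thick filaments pull on actin-based thin filaments. The troponin complex on the thin filament switches this pull on when calcium binds, and paired light chains on each myosin neck tune its speed. Muscle fibres differ in which isoform of each part they use: slow fibres and heart muscle share most of the isoforms studied here, whereas fast fibres use others. A healthy thyroid follicle contains no sarcomeres, but the gland lies against the striated muscles of the neck and larynx, and against tracheal and laryngeal cartilage.

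The samples, all labelled as thyroid, differed widely in tissue content. Thyroid follicular genes (11 of 11 listed genes had a probe, among them Tg, which encodes thyroglobulin, the precursor of thyroid hormone) had a summed level of 3.47 to 8.55 in controls, 0.70 to 7.76 at 9 kBq, 1.85 to 8.24 at 88 kBq, 2.32 to 8.45 at 170 kBq, 3.44 to 8.45 at 260 kBq, 1.85 to 7.99 at 340 kBq, 1.54 to 8.57 at 760 kBq, 0.67 to 8.29 at 1300 kBq and 4.36 to 8.14 at 4700 kBq. On 15 of the 36 arrays, 1 of them a control, this sum was below 5, and Tg itself ran from -4.51 to 7.48. Fast muscle genes (13 of 15 had a probe) had a summed level of 9.69 to 10.63 in controls, 6.77 to 11.10 at 9 kBq, 5.82 to 10.75 at 88 kBq, 9.81 to 11.06 at 170 kBq, 9.57 to 10.94 at 260 kBq, 10.34 to 11.12 at 340 kBq, 0.88 to 10.42 at 760 kBq, 9.66 to 11.64 at 1300 kBq and 7.51 to 11.26 at 4700 kBq. Their sum was below 9 on only 4 arrays, all from irradiated rats: 760 kBq rat 3 at 0.88, 88 kBq rat 3 at 5.82, 9 kBq rat 2 at 6.77 and 4700 kBq rat 2 at 7.51. In such bulk samples, fewer cells of a type and less RNA per cell cannot be told apart. The arrays lay on 5 slides scanned on 2 days, their 75th percentiles ran from 1564 to 4288 intensity units, between 62.8% and 91.1% of probes were well above background, and 0 spots were saturated.

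The gene set was also set beside further lists. Of 14 other genes used by slow fibres, 13 had a probe, 12 of those were well above background on all 36 arrays and 2 stayed below the 75th percentile on all arrays. These arrays include 760 kBq rat 3, with a fast muscle sum of 0.88, so detection alone does not mark slow fibres. Their r with Myh7 ran from -0.120 for Tpm3 and -0.103 for Pln to 0.815 for Ankrd2. Of 11 genes listed for the heart, 3 (Tnnt2, Ryr2 and Nkx2-5) were well above background on all 36 arrays and 10 stayed below the 75th percentile on all arrays. For these 3 heart genes r with Myh7 was -0.206 for Tnnt2, 0.014 for Ryr2 and 0.545 for Nkx2-5, and the tissue that their signal came from was not tested. The cardiac troponin gene Tnni3 was well above background on 28 arrays, the natriuretic peptide genes Nppa and Nppb on 27 and 26, the cardiac myosin-binding protein gene Mybpc3 on 5 and the transcription factor gene Tbx20 on 0. The other heart genes, Myl7, Hand2 and Tbx5, were so on 18, 9 and 6 arrays. Values of each member in each rat follow, ordered by role, and the plot of levels by rat shows all 10 genes.

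**Figure D1:**
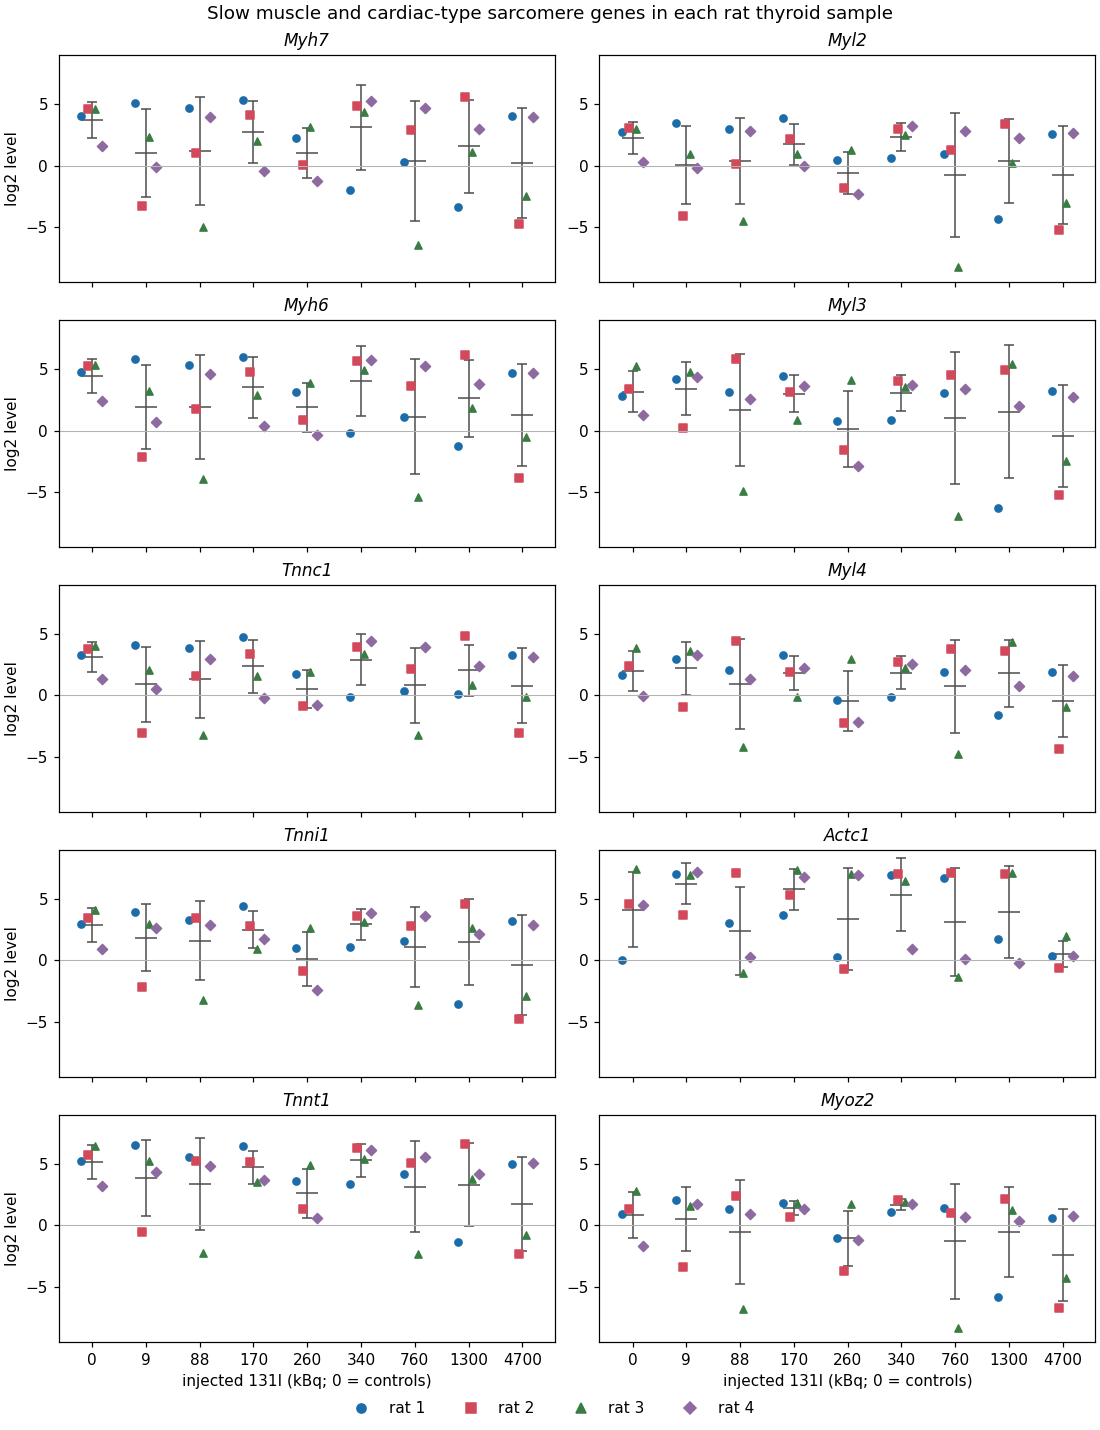
Level of each member gene (log2, with 0 at the 75th percentile of the array) in each of 36 rats, by injected activity in kBq, with 0 for controls; symbols are rats 1 to 4, bars are the group mean ± SD (n = 4). A few rats, such as 760 kBq rat 3 and 4700 kBq rat 2, are low for nearly all genes, while every group also holds rats near the control levels for Myh7.

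Myh7 encodes the slow or beta heavy chain, the motor of slow fibres and of the heart ventricle. Myh7 in control rats 1 to 4 stood at 4.02, 4.57, 4.63 and 1.59, against 5.10, -3.26, 2.32 and -0.08 at 9 kBq and 4.69, 1.04, -5.01 and 3.96 at 88 kBq. Myh7 measured 5.34, 4.08, 2.01 and -0.45 at 170 kBq, 2.24, 0.02, 3.13 and -1.29 at 260 kBq and -2.02, 4.87, 4.32 and 5.23 at 340 kBq. Myh7 levels were 0.27, 2.90, -6.48 and 4.64 at 760 kBq, -3.38, 5.60, 1.08 and 2.96 at 1300 kBq and 3.998, -4.79, -2.45 and 3.92 at 4700 kBq. The 4 controls spanned 8.20-fold, whereas the rats of the 760 kBq group spanned 2238-fold. Over all 36 rats the range was 12.09 log2 units, a 4355-fold span from 760 kBq rat 3 to 1300 kBq rat 2.

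Myh6 encodes the alpha heavy chain of the cardiac motor. Myh6 in control rats 1 to 4 stood at 4.76, 5.26, 5.36 and 2.38, against 5.82, -2.17, 3.19 and 0.72 at 9 kBq and 5.32, 1.77, -3.96 and 4.63 at 88 kBq. Myh6 measured 5.99, 4.80, 2.86 and 0.37 at 170 kBq, 3.16, 0.89, 3.87 and -0.39 at 260 kBq and -0.20, 5.63, 4.90 and 5.72 at 340 kBq. Myh6 levels were 1.11, 3.59, -5.44 and 5.25 at 760 kBq, -1.26, 6.17, 1.84 and 3.77 at 1300 kBq and 4.67, -3.84, -0.51 and 4.71 at 4700 kBq. It followed Myh7 from rat to rat with Pearson r = 0.996 over 36 arrays. These genes are close paralogues, and cross-hybridisation between their probes was not tested, so Myh6 signal is uncertain as evidence of its own transcript.

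Tnnc1 encodes the calcium-binding troponin subunit of slow and cardiac muscle. Tnnc1 in control rats 1 to 4 stood at 3.32, 3.79, 4.04 and 1.38, against 4.13, -3.08, 2.09 and 0.51 at 9 kBq and 3.87, 1.58, -3.18 and 2.99 at 88 kBq. Tnnc1 measured 4.78, 3.36, 1.59 and -0.23 at 170 kBq, 1.76, -0.87, 1.90 and -0.74 at 260 kBq and -0.14, 3.93, 3.39 and 4.45 at 340 kBq. Tnnc1 levels were 0.40, 2.15, -3.22 and 3.96 at 760 kBq, 0.08, 4.83, 0.89 and 2.39 at 1300 kBq and 3.29, -3.06, -0.12 and 3.13 at 4700 kBq. Its span of 265-fold was the narrowest of the 10 genes. Its lowest rats were 760 kBq rat 3, 88 kBq rat 3, 9 kBq rat 2 and 4700 kBq rat 2, the same 4 that were lowest in fast muscle genes.

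Tnni1 encodes the slow isoform of the inhibitory troponin subunit. Tnni1 in control rats 1 to 4 stood at 2.997, 3.44, 4.13 and 0.90, against 3.94, -2.17, 2.9998 and 2.63 at 9 kBq and 3.27, 3.43, -3.18 and 2.91 at 88 kBq. Tnni1 measured 4.44, 2.84, 0.97 and 1.74 at 170 kBq, 1.004, -0.83, 2.65 and -2.41 at 260 kBq and 1.12, 3.64, 3.15 and 3.88 at 340 kBq. Tnni1 levels were 1.62, 2.80, -3.66 and 3.64 at 760 kBq, -3.53, 4.63, 2.61 and 2.19 at 1300 kBq and 3.25, -4.75, -2.90 and 2.86 at 4700 kBq. In this gene 4700 kBq rat 2 was the lowest, and 1300 kBq rat 1 was nearly as low as 760 kBq rat 3. The 340 kBq group held the narrowest set of rats, spanning 6.78-fold.

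Tnnt1 encodes the slow isoform of the tropomyosin-binding troponin subunit. Tnnt1 in control rats 1 to 4 stood at 5.23, 5.74, 6.43 and 3.18, against 6.51, -0.54, 5.23 and 4.33 at 9 kBq and 5.61, 5.23, -2.26 and 4.84 at 88 kBq. Tnnt1 measured 6.45, 5.20, 3.52 and 3.73 at 170 kBq, 3.65, 1.32, 4.91 and 0.63 at 260 kBq and 3.36, 6.28, 5.44 and 6.11 at 340 kBq. Tnnt1 levels were 4.19, 5.10, -2.33 and 5.61 at 760 kBq, -1.37, 6.66, 3.79 and 4.18 at 1300 kBq and 5.04, -2.30, -0.81 and 5.07 at 4700 kBq. Its second probe gave the same order of rats almost exactly (r = 0.999 between the probes). High and low rats occurred within the same group at 9, 88, 760, 1300 and 4700 kBq, with spans of 133-fold or more.

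Myl2 encodes the regulatory light chain of slow and ventricular myosin. Myl2 in control rats 1 to 4 stood at 2.70, 3.03, 2.97 and 0.32, against 3.47, -4.12, 0.97 and -0.20 at 9 kBq and 2.97, 0.16, -4.54 and 2.83 at 88 kBq. Myl2 measured 3.83, 2.19, 0.93 and -0.05 at 170 kBq, 0.45, -1.81, 1.25 and -2.31 at 260 kBq and 0.63, 2.98, 2.47 and 3.20 at 340 kBq. Myl2 levels were 0.97, 1.29, -8.26 and 2.81 at 760 kBq, -4.37, 3.35, 0.17 and 2.24 at 1300 kBq and 2.53, -5.21, -3.05 and 2.62 at 4700 kBq. The value of 760 kBq rat 3 was not well above background, so the span of Myl2, 4348-fold as read, has no firm lower end. Its lowest value well above background was -5.21, in 4700 kBq rat 2. Controls 1 to 3 lay close together and control rat 4 below them.

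Myl3 encodes the essential light chain of the same myosins. Myl3 in control rats 1 to 4 stood at 2.83, 3.40, 5.21 and 1.25, against 4.19, 0.19, 4.80 and 4.39 at 9 kBq and 3.16, 5.79, -4.89 and 2.56 at 88 kBq. Myl3 measured 4.45, 3.12, 0.87 and 3.58 at 170 kBq, 0.81, -1.56, 4.15 and -2.86 at 260 kBq and 0.86, 4.04, 3.55 and 3.69 at 340 kBq. Myl3 levels were 3.04, 4.54, -6.99 and 3.39 at 760 kBq, -6.28, 4.93, 5.45 and 1.98 at 1300 kBq and 3.19, -5.25, -2.50 and 2.76 at 4700 kBq. In 760 kBq rat 3 and 1300 kBq rat 1 it was not well above background, so its span, 7029-fold as read, has no firm lower end. Its lowest value well above background was -5.25, in 4700 kBq rat 2. The highest rat was 88 kBq rat 2, which ranked only 24 of 36 for Myh7.

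Myl4 encodes the essential light chain of atrial and developing muscle. Myl4 in control rats 1 to 4 stood at 1.69, 2.40, 3.90 and -0.03, against 2.996, -0.97, 3.59 and 3.26 at 9 kBq and 2.08, 4.47, -4.17 and 1.37 at 88 kBq. Myl4 measured 3.28, 1.89, -0.10 and 2.22 at 170 kBq, -0.38, -2.24, 3.01 and -2.19 at 260 kBq and -0.14, 2.75, 2.26 and 2.54 at 340 kBq. Myl4 levels were 1.87, 3.78, -4.77 and 2.10 at 760 kBq, -1.56, 3.62, 4.35 and 0.77 at 1300 kBq and 1.94, -4.36, -0.91 and 1.55 at 4700 kBq. It ordered the rats almost as Myl3 did (r = 0.960, Spearman rho = 0.994). As with Myl3, 88 kBq rat 2 was the highest and 760 kBq rat 3 the lowest.

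Actc1 encodes cardiac alpha-actin, the thin filament actin of the heart and of immature skeletal muscle. Actc1 in control rats 1 to 4 stood at 0.01, 4.62, 7.45 and 4.52, against 7.05, 3.73, 6.98 and 7.23 at 9 kBq and 3.07, 7.10, -0.98 and 0.30 at 88 kBq. Actc1 measured 3.68, 5.30, 7.38 and 6.76 at 170 kBq, 0.30, -0.70, 7.06 and 6.92 at 260 kBq and 6.95, 7.08, 6.46 and 0.94 at 340 kBq. Actc1 levels were 6.73, 7.15, -1.35 and 0.15 at 760 kBq, 1.76, 7.07, 7.15 and -0.20 at 1300 kBq and 0.35, -0.61, 1.998 and 0.34 at 4700 kBq. Its levels gathered at both ends of the scale: 16 rats lay above 6, 12 below 1 and 8 between. The highest rat of the 4700 kBq group was at 1.998, while the controls alone ran from 0.01 to 7.45.

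Myoz2 encodes a calsarcin, a protein of the Z-disc where thin filaments are anchored. Myoz2 in control rats 1 to 4 stood at 0.92, 1.36, 2.81 and -1.68, against 2.06, -3.39, 1.61 and 1.74 at 9 kBq and 1.35, 2.42, -6.83 and 0.92 at 88 kBq. Myoz2 measured 1.85, 0.65, 1.83 and 1.38 at 170 kBq, -1.01, -3.72, 1.73 and -1.16 at 260 kBq and 1.09, 2.07, 1.91 and 1.73 at 340 kBq. Myoz2 levels were 1.44, 0.99, -8.32 and 0.68 at 760 kBq, -5.86, 2.13, 1.27 and 0.37 at 1300 kBq and 0.61, -6.75, -4.27 and 0.79 at 4700 kBq. The probe assigned to it was not well above background in 760 kBq rat 3 and 1300 kBq rat 1. Its highest value was in control rat 3.

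The spread between rats of the same group set these genes apart from most of the array. The SD within groups was between 2.47 for Tnnc1 and 3.61 log2 units for Myl3, at the 97.96th to 99.48th percentile of all probes, whose median SD was 0.666. By contrast, group membership accounted for 12.7% of the variance of Myh7, 13.5% of Myh6, 15.9% of Tnnc1, 17.4% of Tnni1, 17.0% of Tnnt1, 16.8% of Myl2, 15.4% of Myl3 and 15.8% of Myl4. Actc1 had the largest such share, 28.0%, and the median over all probes was 19.5%. Such a share is positive even without any group effect, since it was not corrected for the number of groups. The probe of Myoz2 stood at 19.3%.

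Whether any irradiated group differed from the controls was asked with limma over all 36 arrays, with p-values adjusted by the Benjamini-Hochberg method over all 30367 probes and a call where the adjusted p was under 0.01 and levels differed by 1.5-fold or more. In each of the 8 comparisons 0 of the 10 member probes were called, and the share of all probes called was 0% in each. No member had an unadjusted p under 0.05 either, where the share of all probes was 3.22% at 9 kBq, 3.36% at 88 kBq, 2.36% at 170 kBq and 1.12% at 260 kBq. The same share was 13.7% at 340 kBq, 1.64% at 760 kBq, 4.18% at 1300 kBq and 1.66% at 4700 kBq. In no comparison did all 4 irradiated rats lie beyond all 4 controls for a member, which happened for 1.73%, 1.87%, 1.25%, 1.07%, 4.36%, 1.63%, 1.26% and 1.27% of all probes in order of activity. An F test over the 9 groups called 0 of the 10 probes (adjusted p = 0.989 by limma for each), against 0.0132% of all probes.

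The fitted differences were large but so were their errors. With SEs of 1.68 log2 units for Tnnc1 to 2.45 for Myl3, the fit leaves room for sizeable changes in either direction, and a p that misses the threshold does not show that levels were alike. The median difference of the 9 members to the controls was -1.26 log2 units at 9 kBq, -1.79 at 88 kBq, -0.42 at 170 kBq and -2.62 at 260 kBq. It was -0.14 at 340 kBq, -2.18 at 760 kBq, -1.65 at 1300 kBq and -3.25 at 4700 kBq. The median over all probes lay between 0.03 and 0.31 in these comparisons. All 9 members were below the control mean at 88, 260, 760, 1300 and 4700 kBq, 8 of 9 at 170 kBq, 6 of 9 at 9 kBq and 5 of 9 at 340 kBq, and the comparisons share the same 4 controls, whose levels therefore enter every one of these medians. The differences of each member are drawn with their SE in the plot by injected activity.

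**Figure D2:**
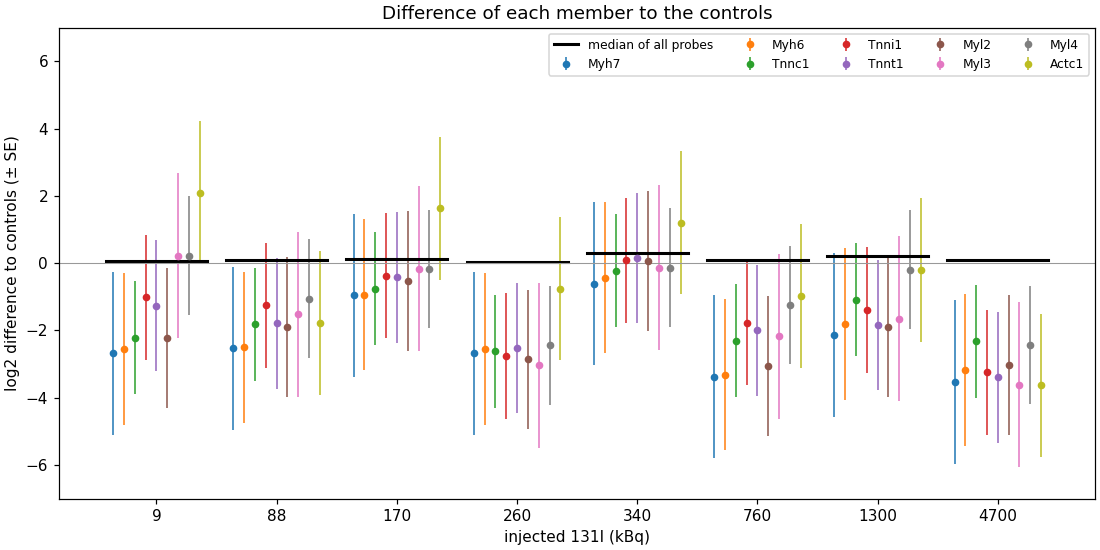
Difference of each of the 9 matched members to the controls (log2, irradiated minus control) with its SE from limma, by injected activity in kBq; the black line is the median over all probes. Most points lie below 0, and at 4700 kBq, where the median is -3.25, all bars of ± 1 SE lie below it although the smallest unadjusted limma p there, for Tnnt1, is 0.0901.

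Single rats moved the median. It was -0.27 in place of -1.65 without 1300 kBq rat 1, 0.69 in place of -0.14 without 340 kBq rat 1, and 0.06 in place of -0.42 without 170 kBq rat 4. When the 4 arrays low in fast muscle genes were left out, an alternative chosen after the values were seen, the median moved from -1.26 to 0.21 at 9 kBq, from -1.79 to -0.27 at 88 kBq, from -2.18 to -0.18 at 760 kBq and from -3.25 to -1.79 at 4700 kBq. Each of these 4 groups had lost 1 rat (9 kBq rat 2, 88 kBq rat 3, 760 kBq rat 3 and 4700 kBq rat 2). When the 15 arrays low in follicular genes were left out instead, the medians were -5.26 at 9 kBq (1 rat left), -1.99 at 88 kBq, 1.24 at 170 kBq, -1.49 at 260 kBq, 1.39 at 340 kBq (1 rat left), -2.45 at 760 kBq, -0.73 at 1300 kBq and -2.12 at 4700 kBq. With either set of arrays left out, limma called 0 of the member probes in each comparison with more than 1 rat left. Without the arrays low in fast muscle genes it called 0% of all probes in each comparison. Without those low in follicular genes it called 11.1% of all probes at 340 kBq, 0.0264% at 9 kBq, 0.0132% at 4700 kBq, 0.0033% at 170 kBq and 0% in the other comparisons.

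The member with the smallest p in each comparison shows the size of these differences, for Tnnt1 by its brighter probe. At 9 kBq this was Tnnc1, with a mean of 0.91 against 3.13 in controls, a difference of -2.22 ± 1.68 (SE; limma adjusted p = 0.999; exact permutation p = 0.257, two-sided, 4 against 4 rats). At 88 kBq Myh6 had a mean of 1.94 against 4.44, a difference of -2.50 ± 2.25 (limma adjusted p = 0.99994; exact permutation p = 0.229). At 170 kBq Actc1 was at 5.78 against 4.15, a difference of 1.63 ± 2.13 (limma adjusted p = 0.996; exact permutation p = 0.486). At 260 kBq Tnnc1 was at 0.51 against 3.13, a difference of -2.62 ± 1.68 (limma adjusted p = 0.99999; exact permutation p = 0.0857). For 340 kBq it was Actc1, at 5.36 against 4.15, a difference of 1.21 ± 2.13 (limma adjusted p = 0.762; exact permutation p = 0.571). For 760 kBq it was Myh6, at 1.13 against 4.44, a difference of -3.31 ± 2.25 (limma adjusted p = 0.99999; exact permutation p = 0.200). For 1300 kBq it was Tnnt1, at 3.32 against 5.15, a difference of -1.83 ± 1.94 (limma adjusted p = 0.840; exact permutation p = 0.400). For 4700 kBq it was Tnnt1 again, at 1.75 against 5.15, a difference of -3.40 ± 1.94 (limma adjusted p = 0.99987; exact permutation p = 0.171). The smallest p such a permutation test can give with 4 against 4 rats is 0.0286.

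Values within slides varied as widely. At 4700 kBq the median member difference was -2.38 on slide 1 (2 irradiated and 2 control arrays) and -0.02 on slide 5 (1 and 1). At 760 kBq it was -8.07 on slide 2, where the irradiated array was that of rat 3, and -1.38 on slide 5. At 260 kBq it was -1.19 on slide 1 and -5.01 on slide 5, and at 1300 kBq -0.32 on slide 1 and -3.90 on slide 2. At 340 kBq it was 0.35 on slide 2 and -0.55 on slide 5, at 170 kBq -1.08 on slide 1 and 0.14 on slide 2, and at 9 kBq -5.35 on slide 1, -0.51 on slide 2 and -0.90 on slide 5. The 88 kBq group shared no slide with the controls. With the slide as a block in the fit, the median was -3.25 at 88 kBq and -4.16 at 260 kBq, and 0 member probes were called.

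Across rats the members did not move as one set. Correlations over the 36 arrays are descriptions, since the arrays share groups, slides and the same tissue mixtures. Among Myh7, Myh6, Tnnc1 and Myl2, r lay between 0.935 and 0.996, and with Tnni1 and Tnnt1 added between 0.893 and 0.996. Subtracting group means left these 6 genes at 0.902 to 0.996, and subtracting slide means at 0.893 to 0.996. The light chain genes Myl3 and Myl4 correlated at 0.753 to 0.857 with the first 4 genes (rho 0.594 to 0.642) and at 0.896 to 0.943 with Tnni1 and Tnnt1. Actc1 stood farthest off, with r between 0.229 for Tnnc1 and 0.595 for Myl4, and between 0.041 and 0.506 without the 2 rats farthest from the median. The assigned probe of Myoz2 correlated at 0.617 with Actc1 and at up to 0.942, with Tnnt1.

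**Figure D3:**
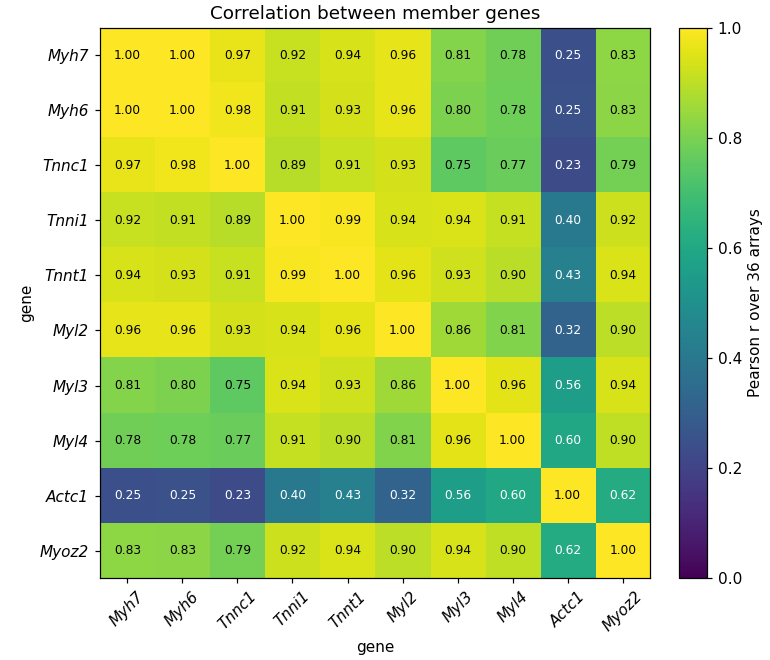
Pearson r over 36 arrays between each pair of member genes, with the values printed in the cells. Myh7, Myh6, Tnnc1 and Myl2 form the tightest set, Myl3 and Myl4 correlate at 0.960 with each other, and the row of Actc1 is the lowest, between 0.229 and 0.617.

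The splits were also looked at among fewer arrays. On the 32 arrays with a fast muscle sum above 9, r was 0.892 to 0.994 among Myh7, Myh6, Tnnc1 and Myl2, 0.549 to 0.750 between these and Myl3 or Myl4, and 0.930 between Myl3 and Myl4. Actc1 against the other 8 genes was then at -0.121 to 0.440. On the 21 arrays with a follicular sum above 5, Actc1 was at 0.205 to 0.607 and the other 8 genes at 0.836 to 0.9998 with each other. There r was 0.961 to 0.9998 among Myh7, Myh6, Tnnc1 and Myl2, and 0.836 to 0.902 between these and Myl3 or Myl4. The split of Myl3 and Myl4 was thus narrower on these arrays.

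The essential light chain genes Myl3 and Myl4 parted from Myh7 in individual rats, whereas the regulatory light chain gene Myl2 followed Myh7 (r = 0.962 over 36 arrays). In 88 kBq rat 2, Myl3 (5.79) and Myl4 (4.47) ranked 1 of 36 while Myh7 (1.04) ranked 24. After centring each gene on its mean over all rats, Myl3 exceeded Myh7 by 4.57 log2 units in that rat, by 4.30 in 9 kBq rat 4, by 4.19 in 1300 kBq rat 3 and by 3.85 in 170 kBq rat 4. In these rats, genes of stratified squamous epithelium such as Krt4 and Krt13 (6 of 8 listed genes had a probe) had summed levels of 8.55, 8.93, 5.66 and 8.89, where the median of all 36 was -0.04. Other rats high in squamous genes had a smaller excess of Myl3 or none. The squamous sum was 8.77 in 760 kBq rat 2 and 8.09 in 260 kBq rat 3, where the difference was 1.46 and 0.84. Over the 13 rats with a squamous sum above 5, a limit set after the values were seen, the centred difference of Myl3 to Myh7 ran from -1.75 to 4.57 and was below 0 in 3. Among them 340 kBq rat 3 had a squamous sum of 7.91 and a difference of -0.95, and 260 kBq rat 4 a sum of 6.93 and a difference of -1.75. Over the 23 rats with a lower sum, the difference was below 0 in 22, and the exception was 9 kBq rat 2 at 3.27. In 2 of these 23 rats, 760 kBq rat 3 and 1300 kBq rat 1, Myl3 was not well above background. The part of these tissues in the split was not tested.

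Low levels of the slow genes occurred in samples of different kinds. The 3 lowest rats for Myh7 were 760 kBq rat 3 (-6.48), 88 kBq rat 3 (-5.01) and 4700 kBq rat 2 (-4.79), and their fast muscle sums ranked 36, 35 and 33 of 36 while their follicular sums ranked 1, 6 and 11. 9 kBq rat 2 (-3.26) was of the same kind, with ranks of 34 and 17. By contrast, 1300 kBq rat 1 (-3.38), 4700 kBq rat 3 (-2.45), 340 kBq rat 1 (-2.02) and 260 kBq rat 4 (-1.29) had fast muscle sums of 11.64, 11.26, 11.02 and 10.94, which ranked 1, 2, 6 and 8, and follicular sums of 0.67 to 4.36. On the 32 arrays with a fast muscle sum of 9.57 to 11.64, Myh7 still ran from -3.38 to 5.60 and Tnni1 from -3.53 to 4.63. Over all arrays Myh7 and the fast muscle sum had r = 0.615 (rho 0.357), which fell to 0.379 without the 2 rats farthest from the median of Myh7. The share of slow to fast muscle in the tissue was not measured.

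**Figure D4:**
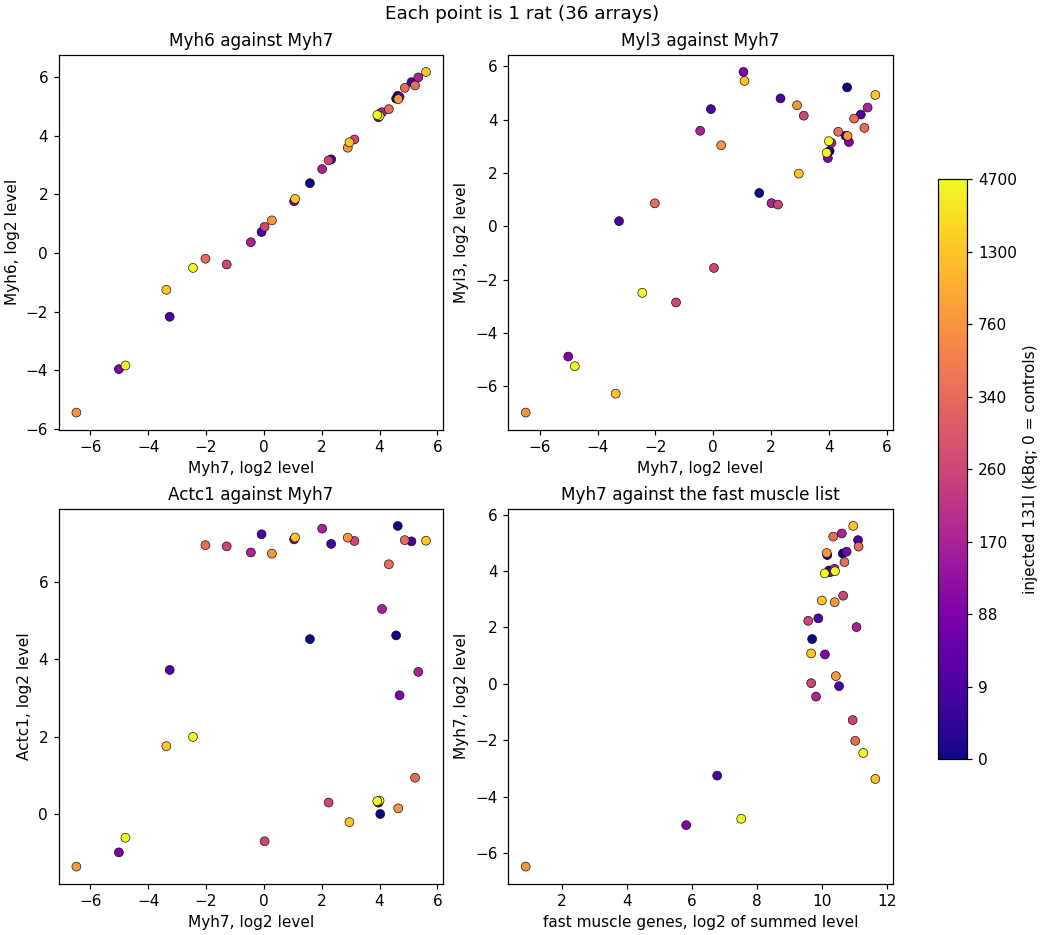
Each point is 1 rat, coloured by injected activity in kBq (0 for controls), on log2 level axes: Myh6, Myl3 and Actc1 against Myh7, and Myh7 against the summed level of the fast muscle list. Myh6 lies on a line with Myh7 (r = 0.996), Myl3 is high in some rats with low Myh7, the 16 rats with Actc1 above 6 have Myh7 between -2.02 and 5.60, and 32 rats share a fast muscle sum above 9 across the range of Myh7 from -3.38 to 5.60.

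Over all 36 arrays, Actc1 was more strongly related to the cartilage, follicular, C cell and parathyroid sums than Myh7 was. Among the 16 rats with Actc1 above 6, Myh7 ran from -2.02 to 5.60, and among the 12 rats with Actc1 below 1 from -6.48 to 5.23. The cartilage sum (7 of 8 listed genes had a probe) was -1.59 to 3.35 in the former and -3.42 to -1.36 in the latter. The follicular sum was 0.70 to 8.29 in the former and 7.97 to 8.57 in the latter. Over all 36 arrays Actc1 correlated at r = 0.867 with the cartilage sum (rho 0.822), at -0.676 with the follicular sum, at -0.750 with the C cell sum and at -0.691 with the parathyroid sum. Myh7 was at 0.126, -0.021, -0.040 and -0.073 with the same sums. With the cartilage sum, Tnni1 was at 0.289, Myl3 at 0.428, Myl4 at 0.477 and the probe of Myoz2 at 0.475. With the sum of other slow fibre genes, Actc1 was at 0.633 and Myh7 at 0.643. With the smooth muscle sum they were at 0.739 and 0.259. Since Actc1 lay at both ends of its scale, r was also taken within each end: with the cartilage sum it was 0.222 among the 16 high rats and 0.406 among the 12 low ones, and with the follicular sum 0.043 and -0.743. Within the 12 low rats Actc1 and Myh7 correlated at 0.904, against 0.168 within the 16 high rats. The 12 low rats include the 3 lowest of all for Myh7, 760 kBq rat 3 (-6.48), 88 kBq rat 3 (-5.01) and 4700 kBq rat 2 (-4.79), and r without them was not taken. Cartilage sums by group were -3.27 to 3.35 in controls, 0.55 to 2.33 at 9 kBq, -3.22 to 2.29 at 88 kBq, -1.66 to -0.10 at 170 kBq, -3.14 to 2.99 at 260 kBq, -1.36 to 2.43 at 340 kBq, -3.34 to 2.64 at 760 kBq, -2.67 to 2.32 at 1300 kBq and -3.42 to -1.41 at 4700 kBq, and their part in the level of Actc1 was not tested. Actc1 was also the member most related to array brightness, with r = -0.426 to the 75th percentile, against 0.195 at most for the other members.

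**Figure D5:**
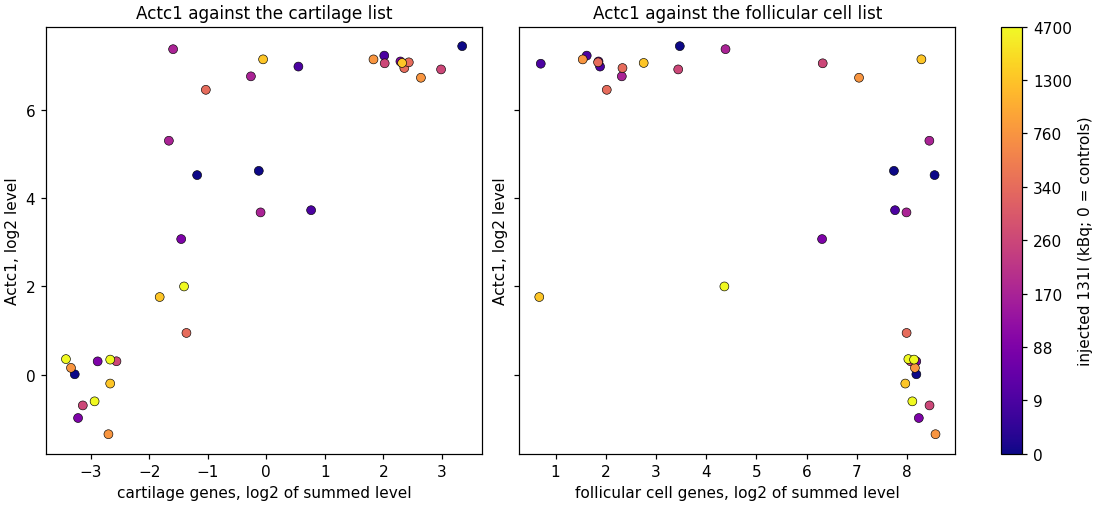
Level of Actc1 (log2) in each of 36 rats against the log2 summed level of the cartilage list and of the thyroid follicular list, coloured by injected activity in kBq (0 for controls). High Actc1 goes with high cartilage sums (r = 0.867), and the 12 rats with Actc1 below 1 all have follicular sums between 7.97 and 8.57.

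The genes whose pattern lay closest to the members were sought among 25561 probes by r with the mean of the 9 members after scaling each to unit variance. The 10 highest were Myh2 (0.934), a fast oxidative myosin heavy chain, Tceal7 (0.830), Atp2a2 (0.825), the calcium pump of slow and cardiac muscle, Csrp3 (0.811), a muscle LIM protein, Slc47a1 (0.789), Actn2 (0.764), a Z-disc actinin, Ankrd2 (0.758), Mb (0.746), myoglobin, Myh3 (0.745), the embryonic heavy chain, and Lmcd1 (0.745). The genes most like Actc1, chosen after its separate pattern was seen, were led by Sln (0.975), which encodes sarcolipin, an inhibitor of the muscle calcium pump, Fhl2 (0.961), a LIM protein of heart muscle, Chad (0.914) and Cnmd (0.905), both cartilage proteins, and Fxyd6 (0.912). Within the 16 high rats Sln and Actc1 were at r = 0.575 and within the 12 low rats at 0.788. For Chad these values were 0.220 and 0.127.

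Other sarcomere and muscle genes gave no call. In the 8 comparisons 0 of 13 fast muscle genes, 0 of 8 genes common to striated muscle (12 listed), 0 of 13 other slow fibre genes and 0 of 11 heart genes were called by limma. The widest ranges over the 36 arrays were 14.27 log2 units for the fast heavy chain gene Myh2, 12.79 for the calcium buffer gene Pvalb and 12.11 for the light chain gene Myl1 among fast muscle genes. Among genes of all striated muscle they were 14.69 for the Z-disc gene Myot, 12.68 for the skeletal alpha-actin gene Acta1 and 11.23 for the creatine kinase gene Ckm. Among other slow fibre genes they were 11.78 for Smpx, 11.17 for Mybpc1, a slow myosin-binding protein gene, and 11.13 for Csrp3. Myh2, Myot and Smpx were each not well above background on 1 array, so their ranges are as read and have no firm lower end.

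One slow and cardiac muscle gene outside the sarcomere, named here after its values were seen, had the smallest p of these lists. Pln encodes phospholamban, which restrains the calcium pump. Its levels at 4700 kBq were 0.97, 0.91, 0.19 and 1.01, all above the 4 controls at -1.41, -1.98, -1.28 and -1.29. The difference of 2.26 ± 0.39 log2 units (SE; limma adjusted p = 0.0332) missed the call limit, and Pln correlated at -0.103 with Myh7 and -0.424 with Actc1, so it did not share the members' pattern over rats. Without 1 rat of either group at a time the difference was 2.10 to 2.46, with limma adjusted p from 0.0225 to 0.226.

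The upstream sequence of the members was read from RefSeq promoters of the GRCr8 assembly, which held 8 of the 10 genes. Motifs were searched on both strands in the 250 bases before each start: the CArG box (the site of serum response factor), the MEF2 site, the MCAT element CATTCC, the E-box CANNTG of myogenic factors and the TATA box TATAAA. A CArG box was present in 1 of 8 members (Myl3) and 1.5% of 33469 promoters, a MEF2 site in 1 of 8 (Myoz2) and 2.96%, an MCAT element in 2 of 8 and 12.1%, an E-box in 7 of 8 and 65.5%, and a TATA box in 2 of 8 and 12.9%. The promoters below are shown because they belong to the only member with a CArG box, the only one with a MEF2 site and the member that parted from the rest. They are given 5′ to 3′ on the gene's strand, with every match in capitals. Myl3 lies at chr8:119616844-119617093 (plus strand) and carries a CArG box from -97 to -88, MCAT elements at -189 and -161 and an E-box at -201. Myoz2 lies at chr2:213852779-213853028 (minus strand), with a MEF2 site from -53 to -44 and E-boxes at -42 and -32. Actc1 lies at chr3:121271828-121272077 (minus strand) and its window holds none of the 5 motifs as searched. A match describes letters in the sequence and not a bound site.
Myl3: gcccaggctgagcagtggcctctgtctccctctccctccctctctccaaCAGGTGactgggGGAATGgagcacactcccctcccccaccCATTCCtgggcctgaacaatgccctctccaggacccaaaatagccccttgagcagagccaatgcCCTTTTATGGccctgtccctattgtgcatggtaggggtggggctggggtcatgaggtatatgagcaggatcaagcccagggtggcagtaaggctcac
Myoz2: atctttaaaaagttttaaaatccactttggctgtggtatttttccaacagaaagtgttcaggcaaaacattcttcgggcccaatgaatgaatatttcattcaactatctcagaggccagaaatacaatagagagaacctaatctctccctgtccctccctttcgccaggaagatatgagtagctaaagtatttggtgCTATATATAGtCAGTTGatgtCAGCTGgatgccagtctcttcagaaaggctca
Actc1: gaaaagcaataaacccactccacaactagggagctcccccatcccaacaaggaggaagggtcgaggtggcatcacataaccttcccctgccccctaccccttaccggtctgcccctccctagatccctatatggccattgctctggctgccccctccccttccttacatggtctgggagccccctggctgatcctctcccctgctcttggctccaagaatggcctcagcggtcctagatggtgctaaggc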

How the data were processed

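RNA of 36 individual thyroid samples was measured on 1 one-colour array each. The intensity values deposited by the authors are scanner output, in which the scanner software had subtracted the background from each spot, with no normalization between arrays. A matrix deposited by the authors holds the same intensities after quantile normalization, on a linear scale, and served as an alternative. Per the labels, Partek was used, with its version not given in the sources used here. Control spots and outlier-flagged spots were dropped, log2 intensity minus the array's 75th percentile was averaged over the spots of a probe, and all 30367 probes were fitted with 1 mean per group in limma 3.58.1 (R 4.3.3), which was also tested on simulated data. Of these probes, 99 lacked a value on at least 1 array and were fitted on the rest; members had values on all 36. p-values were adjusted by Benjamini-Hochberg within each comparison.

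The summed level of a list is log2 of the sum of its genes' linear levels, 1 probe per gene, the one with the highest mean, as for the members. All members are named in the text; per comparison, the member with the smallest p is given in full, and for other lists the 3 genes with the largest range. Permutation tests were exact and two-sided. Members and lists were chosen with earlier results of these data known. Replicates are separate rats, and their number limits the precision of every value. Gene names came from RefSeq by accession. Tables and plots were made with pandas 2.3.3, numpy 2.4.6, scipy 1.17.1 and matplotlib 3.10.9 in Python 3.11.15. Alternatives covered normalization, background correction, the matrix, a filter on dim probes, outlier spots kept, slide or rat number as a block, array weights, trend and robust options, a fit of only the 2 groups compared, other call limits (adjusted p under 0.05, fold change of at least 2) and each rat left out. Leaving out arrays low in follicular or fast muscle genes was added after the values were seen.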

Additional observations from a re-analysis of the deposited data

Results flagged for a closer look

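In 16 of 90 sets of 4 rats (10 genes in 9 groups), 1 rat lay so far from the other 3 that its gap passed Dixon's critical value. Chance flags about 1 in 20, or 4.5 of 90, and the members share their rats, so these sets are not independent. At 340 kBq, rat 1 was low for Myh7 (-2.02, others 4.32 to 5.23), Myh6 (-0.20), Myl3 (0.86) and Myl4 (-0.14). The array of this rat had 1365 outlier-flagged spots, where the other arrays had 331 to 623, and the lowest 75th percentile (1564). The part of array quality in these values was not tested. In the same group, Actc1 was low in rat 4 (0.94, others 6.46 to 7.08). At 760 kBq, rat 3 was low for Myl2 (-8.26), Myl3 (-6.99, others 3.04 to 4.54) and the probe of Myoz2 (-8.32), none of them well above background in this rat. At 88 kBq, rat 3 was low for Tnni1 (-3.18, others 2.91 to 3.43), Tnnt1 (-2.26) and the probe of Myoz2 (-6.83). At 9 kBq, rat 2 was low for Myl3 (0.19, others 4.19 to 4.80), Myl4 (-0.97), Actc1 (3.73, others 6.98 to 7.23) and the probe of Myoz2 (-3.39). Among controls, Myl2 was low in rat 4 (0.32, others 2.70 to 3.03). Every flagged rat was the lowest of its group.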

How the results depend on the processing

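Under the other settings tried and with each rat left out, the count of member probes called by limma stayed at 0 in all 8 comparisons and in the F test. The share of all probes called is not reported here for most of these fits. Where few probes of any kind were called, a count of 0 says little about the members. The smallest adjusted p of a member was 0.0787 in a comparison and 0.0396 in the F test, both for Actc1 with array weights. Leaving out 1 rat at a time moved the median member difference between -2.14 and 0.21 at 9 kBq, -2.55 and -0.27 at 88 kBq, -1.08 and 0.06 at 170 kBq, -3.38 and -1.92 at 260 kBq, -0.78 and 0.69 at 340 kBq, -2.97 and -0.18 at 760 kBq, -2.79 and -0.27 at 1300 kBq and -4.33 and -1.79 at 4700 kBq. With array weights it was -1.003 at 4700 kBq and 0.35 at 170 kBq. The difference of Actc1 at 340 kBq was 1.21, between -0.17 (without control rat 1) and 2.68 (without rat 4 of the group) with 1 rat left out, and -2.11 without the arrays low in follicular genes, where 1 rat of the group remained and was assumed to vary like the others. The median at 9 kBq, also with 1 rat left, was then -5.26. The cause of these changes was not tested. Rat numbers did not pair the groups (median r of deviations -0.026 over 144 same-numbered pairs), and with the rat number as a replicate block the median stayed at -3.25 at 4700 kBq and no call changed. Pln at 4700 kBq passed the call limit with array weights (limma adjusted p = 1.92e-05) and without the arrays low in follicular genes (0.00838). In the latter fit 0.0132% of all probes were called at 4700 kBq. The share of all probes called with array weights is not reported here, so the call of Pln there cannot be set against it. The weights of 4700 kBq rats 1 to 4 were 2.02, 0.948, 0.358 and 4.03, and rat 3 had the lowest Pln level of its group. Low members at or near background have no firm lower level, which limits their fold changes.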
